A study of Brassica oleracea var. italica with 5 samples.

Results

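Cotyledons of 3 day broccoli sprouts were compared with imbibed broccoli seeds, unigene by unigene. A unigene is 1 assembled transcript with its best match in *Arabidopsis* or in the nr database. The comparison covered the unigenes with at least 20 reads in both libraries together, which were 16455 of the 19441 unigenes of the series. Both groups were of the cultivar Qingxiu, with no mutant, transgene or other treatment named. The 3 day cotyledons were cut from soil-grown sprouts on day 3 after germination and are 1 organ. The sprouts were watered with Hoagland's nutrient solution and had a daily light and dark period. The seeds, which the labels call germinated and date to day 0, were surface sterilised with NaClO and kept overnight on moist filter paper. They were sampled whole, so this library also holds the radicle, the shoot apex, the endosperm and the seed coat. Each library pooled 3 biological replicates before sequencing, so there is 1 library per tissue, no replicate error can be given, and every fold below compares 2 libraries rather than the 2 conditions. Age, organ, growth medium with its nutrients, and the hour of harvest, which is not given in the sources used here, cannot be told apart.

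A Brassica seed stores its oil, protein and raffinose sugars mainly in the cotyledons, where abscisic acid keeps the embryo dry-tolerant and dormant until gibberellin and light release it. After germination the cotyledons open, turn green and change from a store into the first photosynthetic leaves, while the oil is burned through the peroxisomal glyoxylate cycle. Brassica cotyledons also carry glucosinolates, sulfur-rich defence compounds that myrosinases cleave when the tissue is wounded.

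The mapped reads of the deposited tables summed to 7833709 in 3 day cotyledons and 9563149 in seeds, and 18012 unigenes in cotyledons and 18309 in seeds had a read. The normalized values are counts divided by a size factor, so that 1 read is worth 1.02 in 3 day cotyledons and 0.708 in seeds. Values below are these normalized values unless reads are named, and each fold is 3 day cotyledons over seeds, given as times higher or times lower, with its exact 95% interval (Clopper-Pearson, conditional binomial) in parentheses. The intervals hold counting error alone. They are too narrow where PCR copies, or both mates of 1 pair, were counted as separate reads. A unigene was called when its fold was at least 2 and its interval excluded 1, and "rose" and "fell" are used only of called unigenes. Where a library had 0 reads, the fold is given with "at least" and takes 3 reads in place of 0, equal to a normalized value of 3.05 in 3 day cotyledons and 2.12 in seeds. This value leaves out the counting error of the other library, and the lower limit of the exact 95% interval is smaller. For *ABI3*, given as at least 106-fold lower, the interval starts at 85.8. The median log2 ratio (1 added to both values) of all 16455 unigenes was -0.10. At the lower limit of reads, the 61 unigenes with exactly 20 reads had a median log2 ratio of 0.47 (quartiles -1.28 and 2.17), and the 69 left out with 19 reads had a median of -0.23 (quartiles -1.20 and 0.87).

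Of the 16455 unigenes, 3641 were higher in 3 day cotyledons (22.1%) and 3700 were lower (22.5%), and these shares are the background for every count below. A gene family at these shares would also have members on both sides. Scaled by total reads instead, which shifted the median of all unigenes by -0.23, 3053 were higher and 4722 were lower. Folds close to 2 depend on this choice: of the genes described below, *SNRK2.6*, *ELF4* and *BCAT3* were no longer called when scaled by total reads, and *ABI5*, *GID1C*, *GAMMA-VPE* and *PCNA1* were no longer called with TMM factors, edgeR's trimmed-mean scaling. Of those given as not called, *SOT18*, *CYP83B1* and *NSP5* were called lower when scaled by total reads, and *MVP1* higher with TMM factors. The folds reached 10 in 723 unigenes that rose and 616 that fell, and 100 in 55 that rose and 40 that fell. Reads in 3 day cotyledons only were found for 102 unigenes, and reads in seeds only for 244.

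The assembly sets a limit on single genes. Of the unigenes compared, 2743 (16.7%) carry the name of an assembly locus that also holds other unigenes, and their transcripts may be joined or may share reads. Locus 15 alone holds 115 unigenes, among them *RCA*, *RBCS3B*, *LHCB1.4*, *LHCB3*, the chlorophyll gene *CHLP*, the acyl-CoA oxidase *ACX2*, the alpha-amylase *AMY3* and the aquaporin *PIP1;4*. Without such unigenes 2953 of 13712 were higher and 3184 were lower. Genes below whose unigene shares a locus with another unigene are pointed out, and their values are uncertain in this way.

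**Figure D1:**
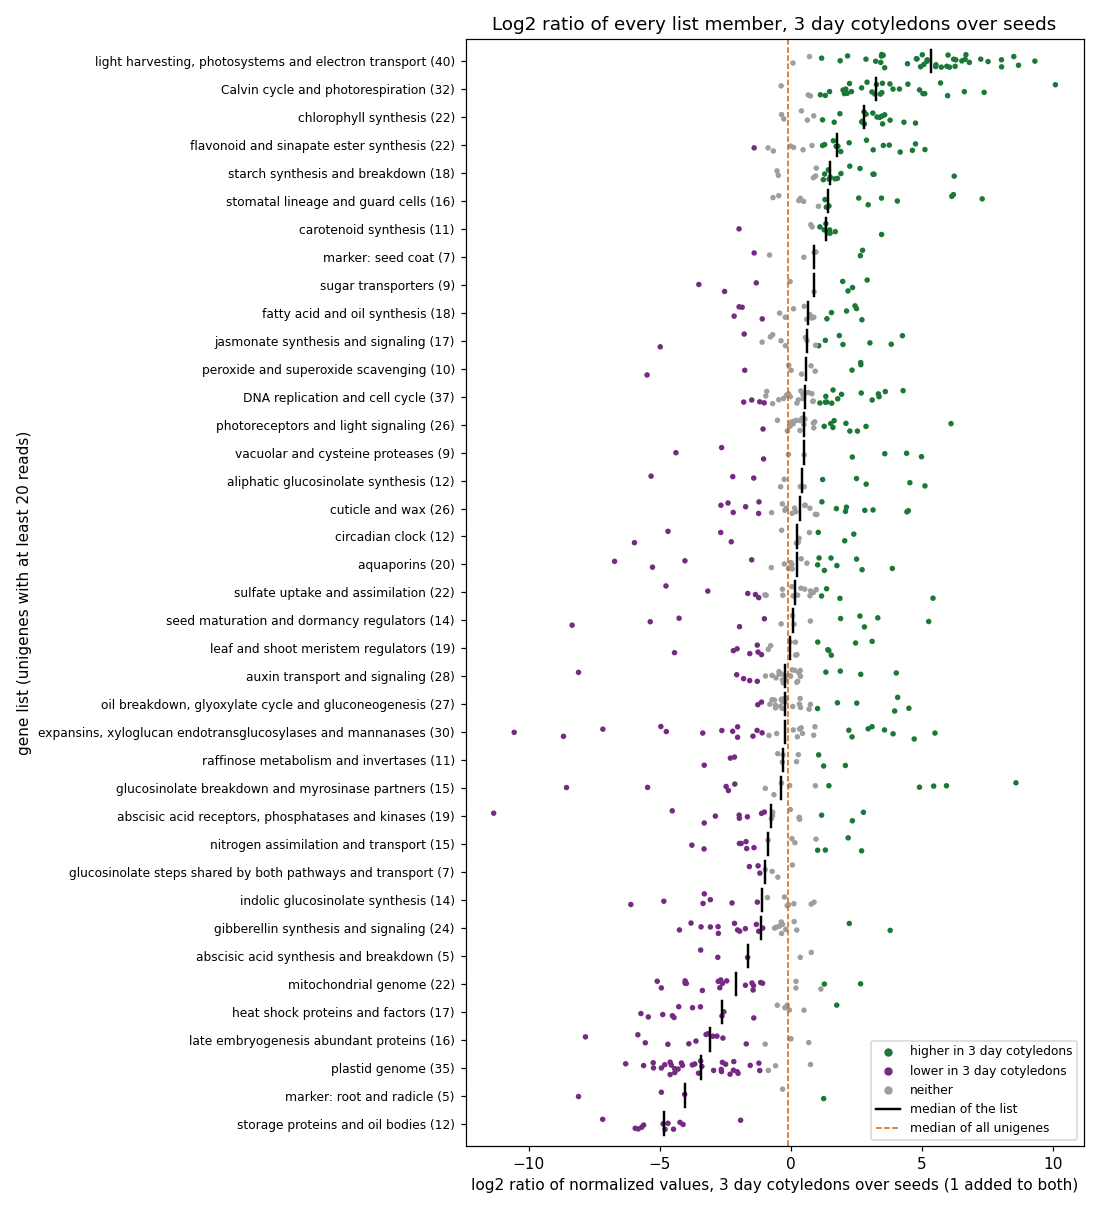
Log2 ratio of normalized values (x axis, 3 day cotyledons over seeds, 1 added to both) for every member with at least 20 reads of each gene list (y axis, number of members in parentheses), coloured by its call. Black bars are list medians, between 5.35 for light harvesting and -4.84 for storage proteins and oil bodies, and the dashed line is the median of all unigenes at -0.10.

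Transcripts of proteins that protect a dry seed were mostly lower in 3 day cotyledons. Of 17 genes of heat shock proteins and factors, 11 fell and 1 rose, with a median log2 ratio of -2.63. *HSP17.6A*, a cytosolic small heat shock protein, had values of 14.2 in 3 day cotyledons and 802 in seeds (56.3-fold lower, 33.4 to 103). *HSP23.6*, a small heat shock protein of mitochondria, had 40.7 in 3 day cotyledons and 1805 in seeds (44.4-fold lower, 32.5 to 62.3). The unigene of *HSP21*, the small heat shock protein of chloroplasts, had 0 reads in 3 day cotyledons and 31 in seeds (at least 7.19-fold lower). *HSP70* and *HSP90.1*, which are inducible chaperones, fell 29.8-fold (25 to 35.8) and 11.0-fold (9.98 to 12). *HSC70-1*, the HSP70 of unstressed cells, had values of 13334 in 3 day cotyledons and 14714 in seeds, a fold of only 1.1 lower. The unigenes of *HSP70*, *HSP90.1* and *HSC70-1* each share an assembly locus with another unigene. The member that rose was *HSP101*, the disaggregating chaperone of heat tolerance, with 192 in 3 day cotyledons and 56.6 in seeds (3.40-fold higher, 2.6 to 4.47).

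Among the storage and desiccation genes, all 12 tested storage protein and oil body unigenes and 12 of 16 late embryogenesis abundant (LEA) unigenes fell, but not by the same extent. *OLEO5*, an oleosin of the oil body surface, fell 3.85-fold (2.71 to 5.63), whereas *PAP85*, a vicilin-like storage protein, fell 63.4-fold (32.0 to 147). *M10*, a LEA protein, had 5.09 in 3 day cotyledons and 347 in seeds (68.2-fold lower, 29.0 to 211). The 4 LEA unigenes that were not called included *LEA14*, with 84.4 in 3 day cotyledons and 84.2 in seeds, and *ECP63*, with 64.1 in 3 day cotyledons and 39.6 in seeds. *PER1*, the 1-cysteine peroxiredoxin of dry seeds, had 5.09 in 3 day cotyledons and 272 in seeds (53.4-fold lower, 22.7 to 165). Of 19 listed storage protein and oil body genes 12 had a unigene. Reads of these 12 made up 0.00148% of all reads in 3 day cotyledons and 0.0590% in seeds, so their transcripts were rare in both libraries. Reads of the listed genes with no unigene could not be counted.

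Genes of abscisic acid (ABA) breakdown were lower in 3 day cotyledons, 3 of 3 tested, while the 2 tested genes of its synthesis, *ABA1* and *ABA2*, were not called. *NCED3*, *NCED5* and *NCED9*, of the committed step of synthesis, had under 20 reads and were not compared. *CYP707A2*, the 8'-hydroxylase that removes ABA from imbibed seeds, had values of 141 in 3 day cotyledons and 1546 in seeds (10.9-fold lower, 9.21 to 13.1). *CYP707A1* and *CYP707A3*, further 8'-hydroxylases, fell 3.15-fold (2.79 to 3.57) and 6.98-fold (5.54 to 8.92). *ABA1*, the zeaxanthin epoxidase of ABA synthesis, had 1759.5 in 3 day cotyledons and 1027 in seeds and was not called.

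Of 19 genes of ABA perception, 9 fell and 3 rose (median log2 ratio -0.75), and receptors of the same family stood on both sides. *PYL5* had 31.5 in 3 day cotyledons and 748 in seeds (23.7-fold lower, 16.6 to 35.1), and *PYL9* had 29.5 in 3 day cotyledons and 301 in seeds (10.2-fold lower, 7.00 to 15.41). *PYR1*, *PYL4* and *PYL6* fell by 3.18 to 3.95 times, and *PYL8* differed by 1.02 times only. The unigenes of *PYR1* and *PYL6* share a locus with others. *PYL1* was higher, with 209 in 3 day cotyledons and 40.3 in seeds (5.17-fold, 3.84 to 7.06). The clade A phosphatases, which hold the ABA kinases inactive until a receptor binds them, ranged from *AHG1*, with 0 reads in 3 day cotyledons and 3643 in seeds, to *HAI1*, with 34 reads in 3 day cotyledons and 6 in seeds (8.15-fold higher, 3.38 to 23.7). *ABI1*, *ABI2* and *HAB2* were not called, at 1.24 to 1.26 times higher. Of the kinases, *SNRK2.6*, which closes stomata, rose 2.27-fold (1.73 to 2.99), and *SNRK2.3* fell 2.18-fold (1.98 to 2.40).

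The transcription factors of seed maturation and ABA response split evenly, with 5 of 14 higher and 5 lower. Their median log2 ratio was 0.09 and changed sign when scaled by total reads (-0.14). *ABI3*, the B3 factor of seed maturation, had 0 reads in 3 day cotyledons and 457 in seeds (at least 106-fold lower). *ABI4*, an AP2 factor, had values of 10.2 in 3 day cotyledons and 459 in seeds (45.2-fold lower, 24.4 to 94.6), and *MFT*, a dormancy regulator, had 2 reads in 3 day cotyledons and 81 in seeds (28.2-fold lower, 7.55 to 237). The ABA-responsive bZIP factors *ABF2*, *ABF3* and *ABF4* stood on the other side, at 10.6-fold (6.53 to 18.1), 3.76-fold (2.93 to 4.86) and 6.39-fold (4.43 to 9.45) higher, while *ABI5*, the bZIP factor of the seed, fell 2.03-fold (1.56 to 2.68). The unigene of *ABF3* shares an assembly locus with another. *AFP3*, a relative of the ABI5-binding proteins, had 116 reads in 3 day cotyledons and 3 in seeds (55.6-fold higher, 18.6 to 273).

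Gibberellin genes were mostly lower in 3 day cotyledons, on both the synthesis and the signaling side. Of 24 members, 13 fell and 2 rose, with a median log2 ratio of -1.15. In the early pathway *CPS*, ent-copalyl diphosphate synthase, had 4.07 in 3 day cotyledons and 95.5 in seeds (23.48-fold lower, 8.96 to 87.4), and *KO*, ent-kaurene oxidase, had 55.9 in 3 day cotyledons and 611 in seeds (10.9-fold lower, 8.32 to 14.6). *KS*, ent-kaurene synthase, which acts between them, went the other way with 71.2 in 3 day cotyledons and 4.25 in seeds (16.8-fold higher, 7.33 to 47.2). *GA3OX1*, which makes the active hormone, was not called, with 96.6 in 3 day cotyledons and 121 in seeds. All 3 receptor genes were lower, *GID1A* with 66.1 in 3 day cotyledons and 297 in seeds (4.50-fold, 3.46 to 5.93), and *GID1B* and *GID1C* by 2.40 and 2.11 times. The DELLA repressors divided: *RGL1*, *RGL2* and *RGL3* fell 6.94-fold (5.45 to 8.95), 6.91-fold (5.25 to 9.24) and 3.36-fold (2.67 to 4.28), whereas *GAI* and *RGA* were not called, with folds of 1.09 higher and 1.36 lower. *RGL1* and *RGL2* share 1 assembly locus, so their values may not be separate, and *RGA* shares its locus with another gene. *GASA4*, a gibberellin-induced cysteine-rich peptide, had 5841 in 3 day cotyledons and 1249 in seeds (4.68-fold higher, 4.43 to 4.94).

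**Figure D2:**
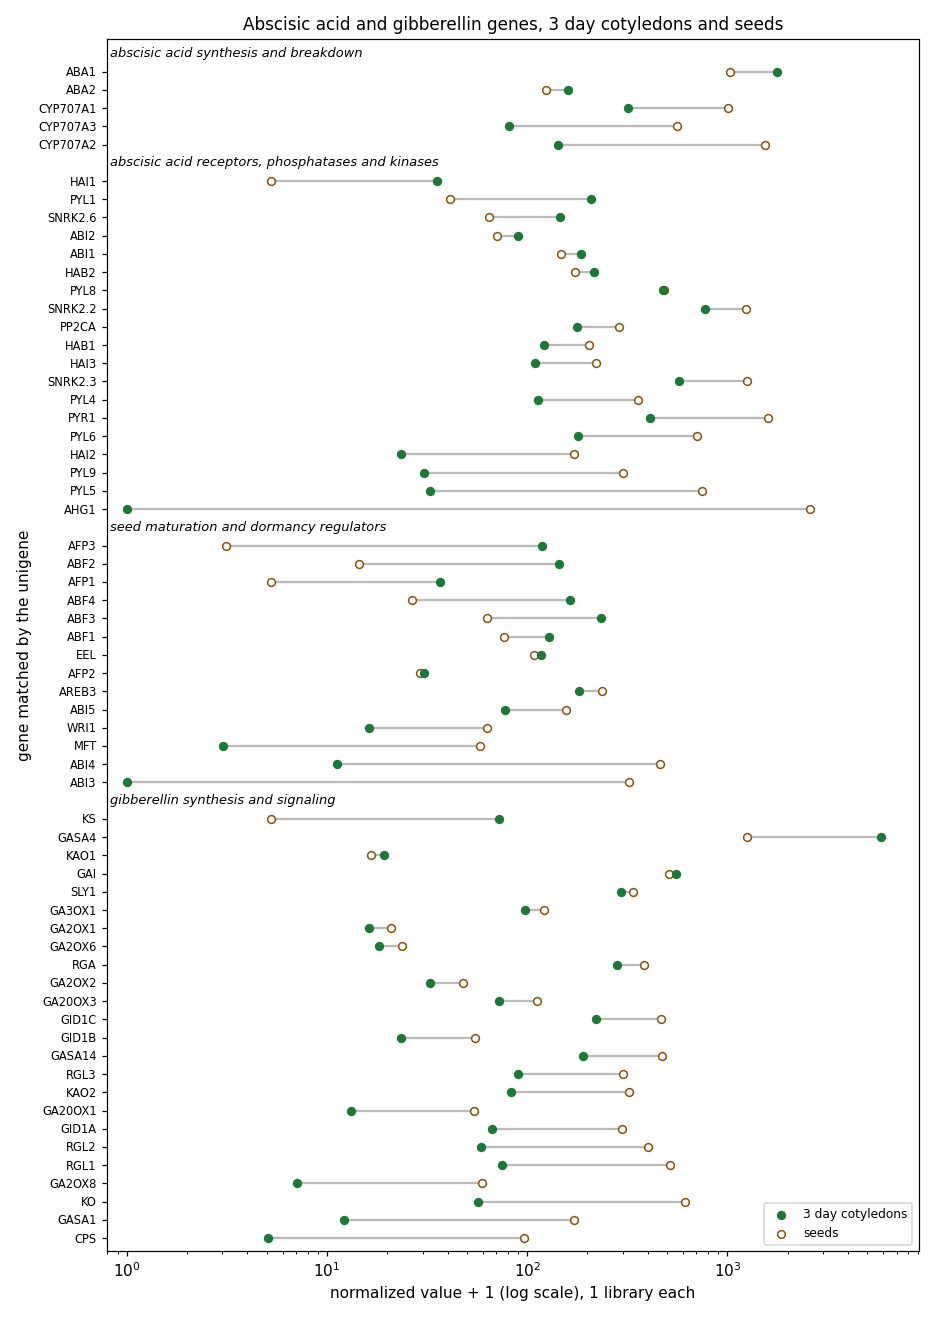
Normalized values + 1 (x axis, log scale) of the abscisic acid and gibberellin genes (y axis) in 3 day cotyledons (filled) and seeds (open), 1 library each, sorted by fold within each list. The widest gaps belong to *AHG1* and *ABI3*, which had 0 reads in 3 day cotyledons, and *AFP3*, *ABF2* and *KS* are among the few genes with the filled point clearly on the right.

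Cell wall loosening genes of the same family stood on both sides. Of 30 expansin, xyloglucan endotransglucosylase (XTH) and mannanase unigenes, 8 rose and 13 fell, and the median log2 ratio of -0.23 became 0.17 without unigenes of shared loci. *EXPA2*, an expansin of germinating seeds in *Arabidopsis*, had 0 reads in 3 day cotyledons and 2119 in seeds. *EXPA8* and *EXPA9* had values of 51.9 in 3 day cotyledons and 543 in seeds and of 233 in 3 day cotyledons and 1090.4 in seeds. In contrast, *EXPA6* had 649 in 3 day cotyledons and 13.4 in seeds (48.3-fold higher, 30.7 to 80.7), and *EXPA4* had 135 in 3 day cotyledons and 4.25 in seeds (31.9-fold higher, 14.3 to 88.4). Among the XTH genes, which cut and rejoin xyloglucan, *XTH5* had 1 read in 3 day cotyledons and 409 in seeds (285-fold lower, 50.8 to 11266), *XTH33* had 0 reads in 3 day cotyledons and 575 in seeds (at least 133-fold lower), and *XTH18* had 9.15 in 3 day cotyledons and 315 in seeds (34.4-fold lower, 18.0 to 75.7). *XTH31* rose 9.02-fold (5.72 to 14.9). *XTH9* also rose, 4.62-fold (4.39 to 4.86), but its unigene shares a locus with that of the photosystem I gene *PSAN*.

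The aquaporins, channels for water, also stood on both sides, as a family at the background shares would. Of 20 members 8 rose and 4 fell, with a median log2 ratio of 0.22 that became -0.01 when scaled by total reads, and without unigenes of shared loci 3 of 14 rose and 4 fell. *TIP3;1*, the tonoplast channel of protein storage vacuoles, had 2 reads in 3 day cotyledons and 452 in seeds (157-fold lower, 43.3 to 1302). *TIP4;1* had 2 reads in 3 day cotyledons and 165 in seeds (57.4-fold lower, 15.6 to 478). The tonoplast channel of large vacuoles, *TIP1;1*, had values of 1274 in 3 day cotyledons and 224 in seeds (5.68-fold higher, 5.02 to 6.45). *TIP2;1* and *TIP1;2* rose 14.7-fold (12.4 to 17.5) and 6.55-fold (6.31 to 6.81), each from a locus with other unigenes. At the plasma membrane *PIP2;1* had 1928 in 3 day cotyledons and 3239 in seeds and was not called, and the boron channel *NIP5;1* fell 17.3-fold (10.8 to 29.5).

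Of 9 vacuolar and cysteine proteases 4 rose and 3 fell, and without unigenes of shared loci 2 of 7 rose and 3 fell. *BETA-VPE*, the vacuolar processing enzyme that matures seed storage proteins, had 30.5 in 3 day cotyledons and 657 in seeds (21.5-fold lower, 15.0 to 32.1), and *GAMMA-VPE*, the vegetative enzyme, had 344 in 3 day cotyledons and 709.7 in seeds (2.06-fold lower, 1.82 to 2.34). *DELTA-VPE*, which belongs to the seed coat in *Arabidopsis*, had 30 reads in 3 day cotyledons and 0 in seeds (at least 14.4-fold higher). *CEP3*, a cysteine endopeptidase, rose 28.4-fold (10.7 to 107), and *RD21A*, a papain-like protease, rose 12-fold (10.4 to 13.9) from a locus it shares with the Calvin cycle gene *PRK*. The aspartic proteases *PASPA1* and *PASPA2* went apart, by 5.12 times higher, from a shared locus, and 6.46 times lower.

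**Figure D3:**
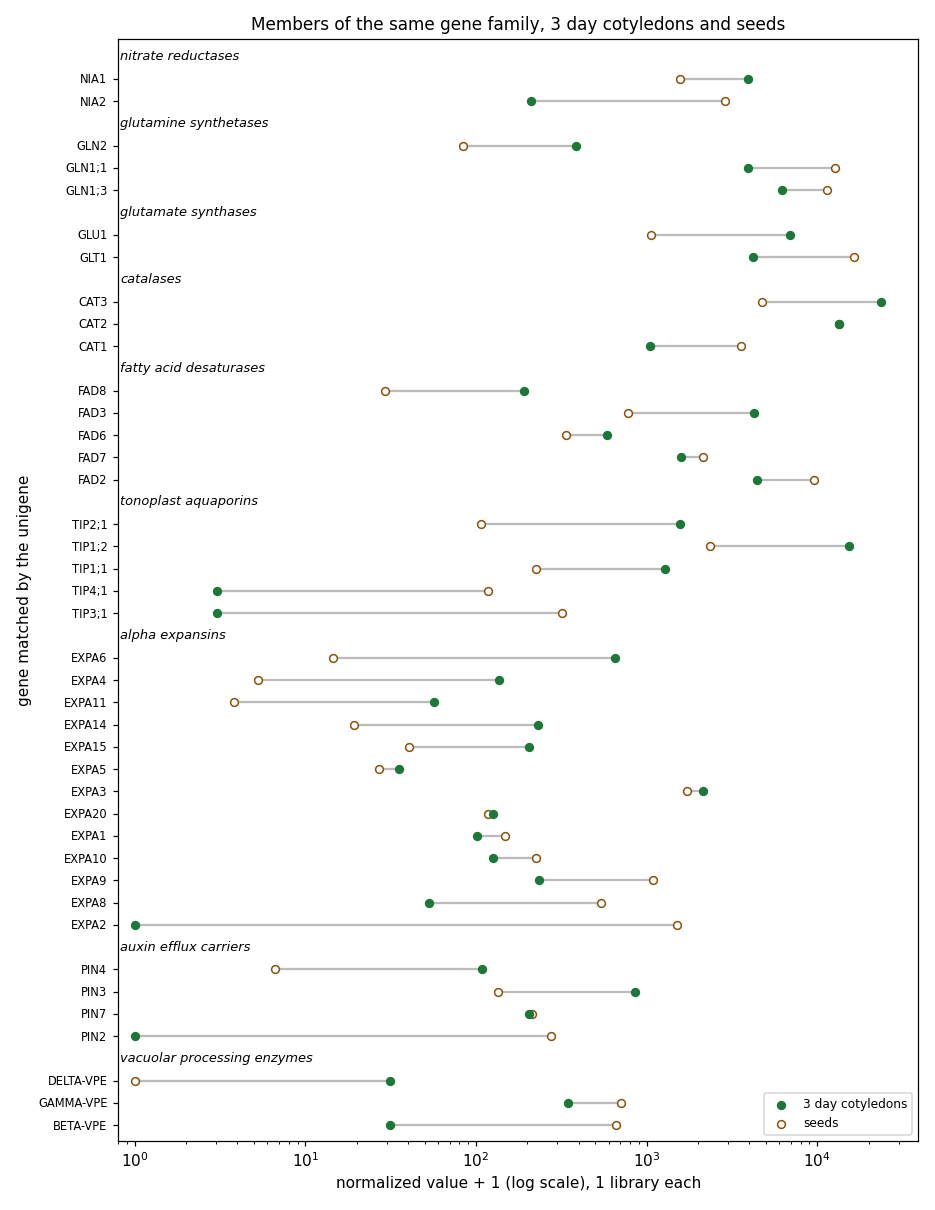
Normalized values + 1 (x axis, log scale) of genes of the same family (y axis) in 3 day cotyledons (filled) and seeds (open), 1 library each. The families were chosen after their values were seen, and each has members higher and members lower in 3 day cotyledons. The catalases run from *CAT3* (5.03 times higher) over *CAT2* (1.01 times) to *CAT1* (3.39 times lower).

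Enzymes of oil breakdown had many reads in both libraries. Reads of the 28 listed unigenes made up 2.56% of all reads in 3 day cotyledons and 2.16% in seeds. Of the 27 tested, 19 were not called. Of the rest 6 rose and 2 fell, while the median log2 ratio was negative (-0.22). *PCK1*, the carboxykinase that opens gluconeogenesis, had 23524 in 3 day cotyledons and 14053 in seeds (1.67-fold higher, 1.64 to 1.71, not called). *KAT2*, the main thiolase of beta-oxidation, had 12825 in 3 day cotyledons and 16464 in seeds, and *MFP2*, the multifunctional protein of the same spiral, had 3713 in 3 day cotyledons and 4694 in seeds. *MLS*, malate synthase, rose, with 23376 in 3 day cotyledons and 6844 in seeds (3.42-fold, 3.34 to 3.5). The 6 members that rose included *ACX2*, *KAT1* and *KAT5*, but *ACX2* shares locus 15 with the light-harvesting genes, and *KAT1* and *KAT5* share a locus with each other and with the photosystem II gene *PSBQ1*. *ICL*, *MLS*, *PCK1* and *KAT2* also share their loci with other unigenes. Without unigenes of shared loci 2 of 16 rose and 2 fell. One that rose was *PMDH2*, a peroxisomal malate dehydrogenase, with 5354 in 3 day cotyledons and 236 in seeds (22.7-fold higher, 20.3 to 25.4), while *PMDH1*, its paralog, had 3804 in 3 day cotyledons and 6266 in seeds and was not called. Per length, *ICL* had 1481 RPKM (reads scaled by unigene length and library size) in 3 day cotyledons and 1079 RPKM in seeds, close to *PORB* with 1267 and 1130 RPKM.

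Raffinose sugars, the soluble reserve of the seed, are cleaved by alpha-galactosidases. *SIP2*, a raffinose-specific enzyme of this kind, had 1850.1 in 3 day cotyledons and 18305 in seeds (9.89-fold lower, 9.43 to 10.4), the third largest fall in normalized value among called unigenes matched to *Arabidopsis*. *AGAL1*, another alpha-galactosidase, fell 4.98-fold (4.27 to 5.82). *DIN10*, a related seed imbibition protein, went up 2.37-fold (2.15 to 2.62), and the vacuolar invertase *VI1* rose 4.27-fold (3.29 to 5.61), while the cell wall invertase *CWINV1* fell 4.47-fold (3.70 to 5.46). Of the 11 members tested, 3 rose and 3 fell.

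Starch genes rose together: 13 of 18 were higher and none was lower, with a median log2 ratio of 1.48, and without shared loci the count was 11 of 15. *APL1*, the large subunit of ADP-glucose pyrophosphorylase in leaves, had 1238 in 3 day cotyledons and 15.6 in seeds (79.5-fold higher, 52.3 to 127). *BAM3*, the chloroplast beta-amylase of night-time starch breakdown, had 109.8 in 3 day cotyledons and 11.3 in seeds (9.70-fold higher, 5.71 to 17.58). *GWD1* and *PHS2*, a glucan kinase and a cytosolic phosphorylase of starch turnover, rose 4.74-fold (4.29 to 5.26) and 8.75-fold (8.01 to 9.58). *GBSS1*, the amylose synthase, was not called and had 574 in 3 day cotyledons and 801 in seeds.

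Among 18 genes of fatty acid and oil synthesis, 6 rose and 4 fell (median log2 ratio 0.66). Those of oil assembly fell: *DGAT1*, the acyltransferase that makes triacylglycerol, had 83.4 in 3 day cotyledons and 378 in seeds (4.53-fold lower, 3.59 to 5.79), and *PDAT1*, which does so from phospholipid, fell 3.95-fold (3.38 to 4.65). *CAC2*, the biotin carboxylase of plastid acetyl-CoA carboxylase, rose 4.35-fold (3.99 to 4.76), and *KASI*, a condensing enzyme of chain elongation, rose 2.59-fold (2.39 to 2.80). The desaturases stood on both sides. *FAD2*, which makes linoleate in the endoplasmic reticulum, had 4461 in 3 day cotyledons and 9523 in seeds (2.13-fold lower, 2.06 to 2.21), and *FAD3*, which turns linoleate into linolenate, had 4232 in 3 day cotyledons and 778 in seeds (5.44-fold higher, 5.09 to 5.82). *FAD8*, a plastid desaturase, rose 6.72-fold (4.75 to 9.71), and *FAD7*, its paralog, had 1592 in 3 day cotyledons and 2146 in seeds from a shared locus and was not called.

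Isoenzymes of nitrogen assimilation stood on both sides, with 4 of 15 members of the list higher and 7 lower (median log2 ratio -0.87). *NIA2*, a nitrate reductase, had 209.5 in 3 day cotyledons and 2886 in seeds (13.8-fold lower, 12 to 15.9), and *NIA1* had 3918 in 3 day cotyledons and 1578 in seeds (2.48-fold higher, 2.36 to 2.62), in a locus shared with *PSAG* and *PSBW* of the photosystems. *GLN1;1*, a cytosolic glutamine synthetase, fell 3.22-fold (3.11 to 3.34), and *GLN2*, the plastid form, had 382 in 3 day cotyledons and 83.5 in seeds (4.58-fold higher, 3.71 to 5.68). *GLT1*, the NADH-dependent glutamate synthase, had 4188 in 3 day cotyledons and 16363 in seeds (3.91-fold lower, 3.78 to 4.04), while *GLU1*, the ferredoxin-dependent one of leaves, had 6906 in 3 day cotyledons and 1067 in seeds (6.47-fold higher, 6.12 to 6.85). The unigenes of *GLN1;1* and *GLU1* share their loci with others. *AMT1;1*, a high-affinity ammonium transporter, fell 10.2-fold (7.03 to 15.5), and *NRT1.1* and *NRT1.7*, nitrate transporters, fell 2.67-fold (2.14 to 3.37) and 3.29-fold (2.81 to 3.86). *ASN1*, a dark-induced asparagine synthetase, fell 3.76-fold (2.91 to 4.92).

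Of 22 sulfate genes, 4 rose and 5 fell, and their median log2 ratio of 0.17 turned to -0.06 when scaled by total reads. *APR3*, an adenylylsulfate reductase, had 301 in 3 day cotyledons and 2716 in seeds (9.02-fold lower, 8.01 to 10.2), whereas its paralogs *APR1* and *APR2* were not called. *SULTR1;1*, the root uptake transporter, had 0 reads in 3 day cotyledons and 37 in seeds (at least 8.58-fold lower), and *SULTR2;1*, the vascular one, had 41 reads in 3 day cotyledons and 0 in seeds (at least 19.6-fold higher). Of the sugar carriers, *SWEET11* and *SWEET12*, which export sucrose from leaf cells, had 569.6 in 3 day cotyledons and 111 in seeds and 469.9 in 3 day cotyledons and 119 in seeds (5.13-fold (4.29 to 6.16) and 3.95-fold (3.31 to 4.74) higher). *SWEET15*, a sucrose exporter of seeds and senescent leaves, fell 13.1-fold (5.84 to 36.5), and the hexose carrier *STP13* fell 5.86-fold (4.45 to 7.85) in a shared locus.

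Genes of photosynthesis had the highest median of the lists examined. Of 40 light-harvesting, photosystem and electron transport unigenes 38 rose and none fell (median log2 ratio 5.35). Reads of all 46 unigenes of the list, tested or not, made up 3.75% of all reads in 3 day cotyledons and 0.228% in seeds. Only 14 of the 40 are alone in their locus, and 12 of these rose. *LHCA2* and *LHCB6*, antenna proteins alone in their locus, had 6593 in 3 day cotyledons and 63.7 in seeds (104-fold higher, 84.1 to 129) and 10800.4 in 3 day cotyledons and 140.1 in seeds (77.1-fold higher, 67.0 to 89.2). *PSAL*, of photosystem I, had 5812 in 3 day cotyledons and 21.2 in seeds (274-fold higher, 192 to 406), and *PSAH2* had 1057 reads in 3 day cotyledons and 1 in seeds (1519-fold higher, 272 to 60066). *NDF6*, of the chloroplast NADH dehydrogenase-like complex, had 816 reads in 3 day cotyledons and 2 in seeds (586-fold higher, 162 to 4851). The members not called were *ATPD*, the delta subunit of chloroplast ATP synthase, with 8122 in 3 day cotyledons and 4981 in seeds, and *LHCB4.2*, with 25 reads in 3 day cotyledons and 34 in seeds.

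In the Calvin cycle and photorespiration 29 of 32 unigenes rose and none fell. *CFBP1*, the plastid fructose bisphosphatase, had 3073 in 3 day cotyledons and 30.4 in seeds (101-fold higher, 74.8 to 139.8), and *HPR1*, hydroxypyruvate reductase of photorespiration, had 1564 in 3 day cotyledons and 8.49 in seeds (184-fold higher, 105 to 357), both in loci with other unigenes. *PGLP1*, phosphoglycolate phosphatase, is alone in its locus and had 1349.7 in 3 day cotyledons and 20.5 in seeds (65.8-fold higher, 45.6 to 98.6). *CA1* and *CA2*, carbonic anhydrases, differed: *CA1* had 9947 in 3 day cotyledons and 5951 in seeds and was not called, and *CA2* had 1065 reads in 3 day cotyledons and 0 in seeds (at least 510.3-fold higher). Both share their loci with other unigenes. The highest value per length in 3 day cotyledons was that of *RBCS3B*, the small subunit of Rubisco, with 5984 RPKM in 3 day cotyledons and 135 RPKM in seeds.

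Chlorophyll synthesis was higher at most steps, with 17 of 22 genes up and none down (median log2 ratio 2.79). *CHLH*, a subunit of magnesium chelatase, had 7115 in 3 day cotyledons and 517 in seeds (13.8-fold higher, 12.7 to 14.9), and *CAO*, which makes chlorophyll b, had 991 in 3 day cotyledons and 135 in seeds (7.33-fold higher, 6.27 to 8.61). The unigene of *CHLH* shares its locus with others. *PORC*, a protochlorophyllide oxidoreductase, had 1693 in 3 day cotyledons and 173 in seeds (9.77-fold higher, 8.54 to 11.2). *PORB*, its paralog, was already abundant in seeds and had 60967 reads in 3 day cotyledons and 66348 in seeds (1.32-fold higher, 1.31 to 1.34, not called), although its unigene lies in locus 32 with 31 others. *HEMA1*, glutamyl-tRNA reductase at the entry of the pathway, had 262 in 3 day cotyledons and 337 in seeds and was not called. In carotenoid synthesis 8 of 11 rose, among them *PSY*, phytoene synthase (2.64-fold, 2.07 to 3.38), and *LUT1* (2.82-fold, 2.59 to 3.06), while *BCH1*, a beta-carotene hydroxylase, had 79.3 in 3 day cotyledons and 316 in seeds (3.98-fold lower, 3.12 to 5.13).

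Transcripts of the plastid genome ran against this. Of 35 tested unigenes 32 fell in 3 day cotyledons and none rose, with a median log2 ratio of -3.44. *RPOB*, the beta subunit of the plastid RNA polymerase, had 77 reads in 3 day cotyledons and 1971 in seeds (17.8-fold lower, 14.2 to 22.7), and *PSAB*, a core protein of photosystem I, had 80 reads in 3 day cotyledons and 469 in seeds (4.08-fold lower, 3.21 to 5.24). *RBCL*, the large subunit of Rubisco, was not called, with 130 reads in 3 day cotyledons and 111 in seeds. Unigenes matched to the mitochondrial genome were lower too, 17 of 22 with 2 higher. The libraries were made from RNA selected for its poly(A) tail with poly-T beads, so these reads do not measure the organelle RNA as a whole. How complete this selection was in each library, and its part in this result, was not tested.

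**Figure D4:**
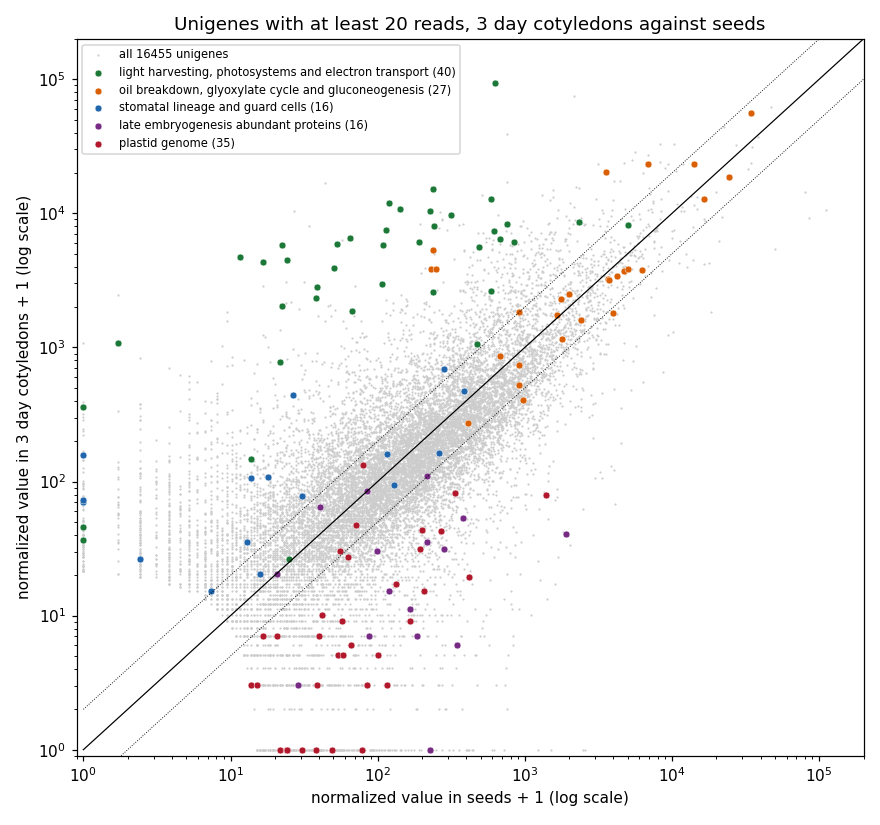
Normalized value + 1 in 3 day cotyledons (y axis, log scale) against seeds (x axis, log scale) for all 16455 unigenes, with 5 lists coloured. The solid line is equality and the dotted lines are 2-fold, 38 of 40 light-harvesting genes lie above them, LEA and plastid genome unigenes mostly below, and most oil breakdown unigenes between them at high values.

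Of 26 photoreceptor and light signaling genes 9 rose and 1 fell (median log2 ratio 0.51). The phytochromes *PHYA*, *PHYB*, *PHYC* and *PHYE* were all uncalled, and *PHYA* had 1058 in 3 day cotyledons and 919 in seeds. The phototropins, blue light receptors of bending and chloroplast movement, rose: *PHOT1* had 2558 in 3 day cotyledons and 538 in seeds (4.75-fold higher, 4.38 to 5.16), and *PHOT2* rose 7.37-fold (5.85 to 9.37). *HY5*, the central factor of greening, had 409.9 in 3 day cotyledons and 450.0 in seeds and was not called. *GLK1* and *GLK2*, activators of chloroplast genes, rose 4.37-fold (3.15 to 6.17) and 2.89-fold (2.23 to 3.78). *ELIP2*, an early light-induced protein, had 1186 in 3 day cotyledons and 16.3 in seeds (72.9-fold higher, 48.3 to 115), whereas *ELIP1* had 346 in 3 day cotyledons and 353 in seeds.

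Of 12 clock genes 3 rose and 4 fell, while the median log2 ratio was positive (0.24). Those that fell peak near dawn or in the morning in *Arabidopsis*: *LHY* had 7.12 in 3 day cotyledons and 507 in seeds (71.2-fold lower, 34.4 to 178), *CCA1* fell 5.22-fold (2.69 to 11.3), *PRR9* had 2 reads in 3 day cotyledons and 109 in seeds (37.9-fold lower, 10.2 to 317) and *RVE8* had 2 reads in 3 day cotyledons and 26 in seeds (9.04-fold lower, 2.26 to 78.6). *TOC1* and *ELF4*, which peak near dusk, and *PRR7*, which peaks around midday, rose 5.28-fold (4.66 to 6.01), 2.07-fold (1.67 to 2.57) and 4.15-fold (3.71 to 4.65). The part of the hour of harvest in this result was not tested.

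Glucosinolate synthesis differed between its branches, as far as their genes were assembled. Of 28 listed aliphatic genes 14 had a unigene, and of 16 indolic ones 15 had. In the aliphatic branch, made from methionine, 5 of 12 unigenes rose and 3 fell, with a median log2 ratio of 0.43. *MYB28*, the activator of the branch, had 105 reads in 3 day cotyledons and 3 in seeds (50.3-fold higher, 16.7 to 248). *CYP83A1*, its oxime-metabolising P450, had 54 reads in 3 day cotyledons and 2 in seeds (38.8-fold higher, 10.2 to 329). *GSTU20* and *GSTF11*, glutathione transferases, had 6207 in 3 day cotyledons and 1097 in seeds (5.66-fold higher, 5.35 to 5.99) and 125 in 3 day cotyledons and 16.3 in seeds (7.69-fold higher, 4.90 to 12.6), and *BCAT3*, an aminotransferase of chain elongation, rose 2.32-fold (2.04 to 2.63). At the end of the pathway the direction was opposite. *SOT17*, a sulfotransferase, had 49.8 in 3 day cotyledons and 236 in seeds (4.73-fold lower, 3.49 to 6.52), *FMO-GSOX5*, an S-oxygenase, fell 2.78-fold (1.56 to 5.28), and *GSL-OH*, a side-chain hydroxylase, had 61.0 in 3 day cotyledons and 2498 in seeds (40.9-fold lower, 31.7 to 53.8) in a locus with another unigene. *IPMI-LSU1*, *IPMI-SSU2*, *IPMDH1* and *FMO-GSOX2* were not called, with folds between 1.22 and 1.44 in either direction. *FMO-GSOX5* and *IPMDH1* share their loci with others, and without such unigenes 5 of 9 rose and 1 fell. *MYB29*, a relative of *MYB28*, and *IPMDH3* had under 20 reads and were not compared. The study kept glucosinolate genes only above a limit of sequence identity to *Arabidopsis*, which was not applied here. *MYB28*, *GSL-OH*, *GSTU20*, *IPMI-LSU1*, *IPMI-SSU2* and *IPMDH1* are not among the genes it listed, and are named here by best match alone. Of the MYB regulators it named, the study reported only *MYB29* and *MYB51* as detected, so not *MYB28*. Of the aliphatic side-chain genes it identified only *FMO-GSOX2* and *FMO-GSOX5*, so not *GSL-OH*. It proposes that missing genes downstream of *FMO-GSOX2* may explain why glucoraphanin accumulates.

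In the indolic branch, made from tryptophan, none of 14 unigenes rose and 7 fell (median log2 ratio -1.09). The falls were steepest at the last steps, which modify the indole ring. *CYP81F2* had 17.3 in 3 day cotyledons and 1257 in seeds (72.7-fold lower, 45.3 to 125), and *CYP81F4* had 12.2 in 3 day cotyledons and 379 in seeds (31.0-fold lower, 17.61 to 60.4). *CYP81F3* fell 9.62-fold (4.24 to 27.0), and the methyltransferases *IGMT1* and *IGMT2* fell 11.0-fold (5.39 to 25.9) and 11.2-fold (5.74 to 25). *CYP81F1*, another hydroxylase, was not called (1.11 times lower). *MYB51*, an activator of the branch, had 18.3 in 3 day cotyledons and 90.6 in seeds (4.95-fold lower, 3.01 to 8.61), and *SOT16*, its sulfotransferase, fell 2.43-fold (2.19 to 2.71). *CYP79B2*, the entry enzyme, had 73.2 in 3 day cotyledons and 87.0 in seeds, and *CYP83B1*, *TSB1*, *GSTF9*, *GSTF10* and *MYB34* were not called either, with folds of 1.07 to 1.86. Of the steps used by both branches *SUR1*, the C-S lyase, fell 3.03-fold (2.27 to 4.11), *GSH1*, of glutathione synthesis, fell 2.38-fold (2.27 to 2.51), and *GTR2*, a glucosinolate importer, fell 2.28-fold (2.09 to 2.49). *SOT18*, *GGP1*, *UGT74B1* and *GTR1* were not called. *SOT16*, *GSTF9* and *GSH1* share their loci with others, and *CYP79B3* had too few reads to be compared. The study, with its identity limit, reported *CYP81F2*, *IGMT2*, *MYB34* and *UGT74B1* as not detected. Here these are named by best match alone.

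Of 15 genes of glucosinolate breakdown 5 were higher and 5 lower (median log2 ratio -0.36), with 1 more lower when scaled by total reads and 1 more higher with TMM factors. The summed normalized value of all 18 unigenes of the list, tested or not, was 38966 in 3 day cotyledons and 7906 in seeds. It was carried mostly by *ESM1*, *NIT2* and *MBP2*. *TGG2*, a myrosinase (AT5G25980), had 1703 in 3 day cotyledons and 38.2 in seeds (44.6-fold higher, 34.0 to 59.6), and *TGG1*, its paralog, had 42.7 in 3 day cotyledons and 55.2 in seeds and was not called. *BGLU18*, a beta-glucosidase of the endoplasmic reticulum body, had 534 in 3 day cotyledons and 7.78 in seeds (68.6-fold higher, 38.0 to 138), whereas *PYK10*, the root and seedling enzyme of the same body, had 1 read in 3 day cotyledons and 1072 in seeds (746-fold lower, 134 to 29485). *MBP2*, a myrosinase-binding protein, had 7762 in 3 day cotyledons and 259 in seeds (29.97-fold higher, 27.0 to 33.4), and *MBP1* had 2 reads in 3 day cotyledons and 188 in seeds (65.4-fold lower, 17.9 to 544). *ESM1*, which favours isothiocyanates in *Arabidopsis*, had 16886 in 3 day cotyledons and 43.2 in seeds, while *ESP*, which diverts the reaction to nitriles, had 265 in 3 day cotyledons and 275 in seeds and was not called. *NSP1*, a nitrile specifier, fell 4.47-fold (3.37 to 6.01), and *NSP5* was not called. The nitrilases went apart: *NIT2* had 10668 in 3 day cotyledons and 3912 in seeds (2.73-fold higher, 2.64 to 2.82), *NIT1* had 236 in 3 day cotyledons and 1236 in seeds (5.24-fold lower, 4.57 to 6.03) and *NIT4* fell 5.84-fold (3.41 to 10.8). *PEN2*, the myrosinase for indolic forms, had 158 in 3 day cotyledons and 248 in seeds, and *MVP1* had 456 in 3 day cotyledons and 238 in seeds, both not called. *ESM1*, *MBP2* and *NIT2* share their loci with other unigenes, and without such unigenes 2 of 12 rose and 5 fell. *NSP2*, *NSP4* and *NIT3* had under 20 reads. *BGLU25*, a beta-glucosidase of the same enzyme family that is not in the list and shares its locus, was among the largest folds, with 370 reads in 3 day cotyledons and 2 in seeds (266-fold higher, 73.1 to 2204).

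**Figure D5:**
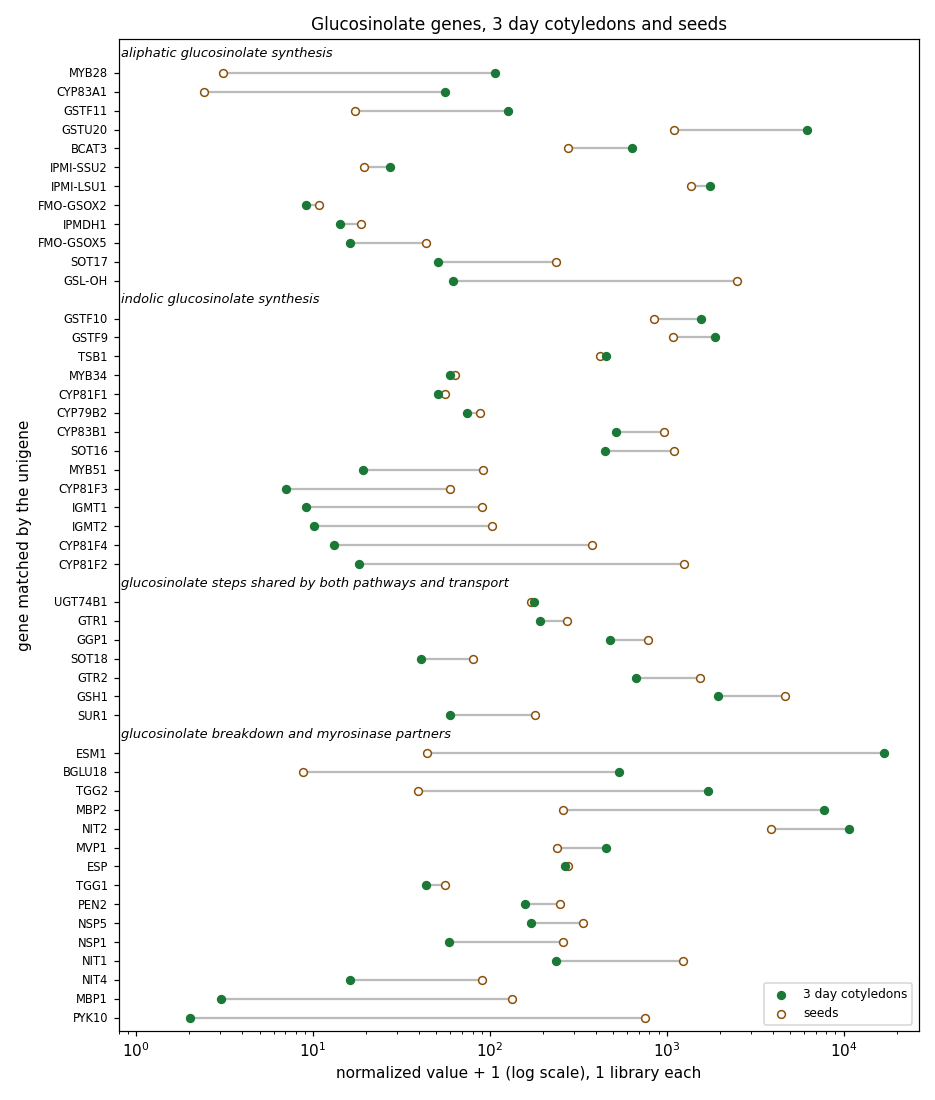
Normalized values + 1 (x axis, log scale) of the glucosinolate genes (y axis) in 3 day cotyledons (filled) and seeds (open), 1 library each, sorted by fold within each list. No filled point of the indolic list lies 2-fold to the right of its open one, whereas the breakdown list runs from *ESM1* (391 times higher) to *PYK10* (746 times lower).

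Of 22 flavonoid and sinapate unigenes 15 rose and 1 fell, with a median log2 ratio of 1.76. *CHS*, chalcone synthase at its entry, had 7113 in 3 day cotyledons and 809 in seeds (8.80-fold higher, 8.26 to 9.37). The anthocyanin enzymes *DFR* and *LDOX* had 368 in 3 day cotyledons and 12.7 in seeds (28.9-fold higher, 18.0 to 49.3) and 180.0 in 3 day cotyledons and 4.25 in seeds (42.4-fold higher, 19.1 to 117), and *FLS1*, of flavonol synthesis, had 344 in 3 day cotyledons and 29.0 in seeds (11.8-fold higher, 8.55 to 16.8). Their MYB activators rose as well, *PAP1* with 144 reads in 3 day cotyledons and 7 in seeds (29.6-fold higher, 14 to 74.9), *PAP2* by 17-fold (6.87 to 54.2) and *MYB111* by 22.7-fold (9.33 to 71.9). The member that fell was *UGT84A2*, which makes sinapoyl glucose, with 279 in 3 day cotyledons and 738 in seeds (2.65-fold lower, 2.32 to 3.04), and *SNG1*, which makes sinapoyl malate from it, was not called. *CHS* and *SNG1* share their loci with other unigenes.

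Stomatal genes were higher in 3 day cotyledons or uncalled: 10 of 16 rose and none fell (median log2 ratio 1.4), and 15 of the 16 are alone in their locus. *SPCH*, which starts the lineage, had 105 in 3 day cotyledons and 12.7 in seeds (8.23-fold higher, 4.95 to 14.4), and *MUTE*, which acts next, rose 2.87-fold (1.56 to 5.49), while *FAMA*, which completes the guard cell, had 161 in 3 day cotyledons and 115 in seeds and was not called. *SDD1*, a protease of stomatal spacing, had 153 reads in 3 day cotyledons and 0 in seeds (at least 73.3-fold higher), *BASL*, a polarity protein of the lineage, had 68 reads in 3 day cotyledons and 0 in seeds (at least 32.6-fold higher), and *MYB60*, a guard cell factor, had 71 reads in 3 day cotyledons and 0 in seeds (at least 34.0-fold higher). *TMM*, the receptor-like protein of patterning, had 439 in 3 day cotyledons and 25.5 in seeds (17.2-fold higher, 12.3 to 25).

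Of 26 cuticle and wax unigenes 8 were higher and 6 lower, and without unigenes of shared loci 5 of 22 were higher and 6 lower. *GPAT8*, a cutin acyltransferase, had 35 reads in 3 day cotyledons and 1 in seeds (50.3-fold higher, 8.46 to 2043), and *CER4*, a wax reductase, had 341 in 3 day cotyledons and 77.8 in seeds (4.38-fold higher, 3.52 to 5.48). *CER6*, the elongase of wax precursors, had 108 in 3 day cotyledons and 691 in seeds (6.41-fold lower, 5.24 to 7.91), and *MYB96*, a wax activator, fell 4.79-fold (2.91 to 8.35). The lipid transfer proteins *LTP1* and *LTP2* rose 8.76-fold (8.27 to 9.30) and 22.9-fold (17.1 to 31.2), from 1 shared locus, and *LTP4*, which is outside the list, had 328 reads in 3 day cotyledons and 1 in seeds (471-fold higher, 84.0 to 18678).

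Of 37 genes of DNA replication and the cell cycle, 14 rose and 4 fell (median log2 ratio 0.53). The mitotic cyclin *CYCB2;2* had 45 reads in 3 day cotyledons and 2 in seeds (32.3-fold higher, 8.45 to 275), and *CYCD3;2*, a G1 cyclin, had 73.2 in 3 day cotyledons and 6.37 in seeds (11.50-fold higher, 5.73 to 26.2). *MCM3*, *MCM5* and *MCM7*, of the replicative helicase, rose by 2.50 to 3.05 times, and *MCM2*, in a shared locus, *MCM4* and *MCM6* were not called. *PCNA1*, the sliding clamp, had 399.7 in 3 day cotyledons and 812 in seeds (2.03-fold lower, 1.81 to 2.28). *CDKA1*, the main cell cycle kinase, had 222 in 3 day cotyledons and 243 in seeds.

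The regulators of leaf form and shoot meristem had 6 of 19 members higher and 7 lower. *AN3*, a coactivator of leaf cell division, had 10.2 in 3 day cotyledons and 241 in seeds (23.7-fold lower, 12.7 to 49.9). The growth-regulating transcription factors it binds, *GRF3* and *GRF5*, fell 4.63-fold (3.65 to 5.93) and 4.23-fold (3.03 to 6.03). *ANT*, an AP2 factor of organ growth, had 55.9 in 3 day cotyledons and 5.66 in seeds (9.88-fold higher, 4.68 to 24.0), and *FIL* and *YAB2*, of the YABBY family, went apart by 2.40 times lower and 2.76 times higher. The unigene of *YAB2* shares its locus. The median log2 ratio of the list was -0.03 and became 0.05 with TMM factors, and without unigenes of shared loci 3 of 16 rose and 7 fell (median -0.82).

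Of 28 auxin genes 4 were higher and 5 lower (median log2 ratio -0.22). The efflux carriers *PIN3* and *PIN4* had 851 in 3 day cotyledons and 134 in seeds (6.37-fold higher, 5.43 to 7.49) and 107 in 3 day cotyledons and 5.66 in seeds (18.9-fold higher, 9.23 to 44.8), and *PIN7* was not called. *AFB2*, an auxin receptor, fell 4.21-fold (3.60 to 4.96). In the jasmonate list 7 of 17 rose and 2 fell. *LOX2*, the lipoxygenase of leaf chloroplasts, had 435 in 3 day cotyledons and 21.9 in seeds (19.8-fold higher, 13.8 to 29.6), and *JAZ1*, a repressor of the pathway, had 17.3 in 3 day cotyledons and 577 in seeds (33.4-fold lower, 20.7 to 57.6). *VSP1*, a vegetative storage protein, had 2237 in 3 day cotyledons and 157 in seeds (14.2-fold higher, 12.4 to 16.4) from a shared locus. Without unigenes of shared loci 4 of 12 jasmonate genes rose and 2 fell.

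Of 10 peroxide and superoxide scavenging genes 3 rose and 2 fell. *CAT3*, a catalase, had 23693 in 3 day cotyledons and 4715 in seeds (5.03-fold higher, 4.89 to 5.16), *CAT2* had 13489.5 in 3 day cotyledons and 13420.2 in seeds and *CAT1*, the seed form in *Arabidopsis*, had 1052 in 3 day cotyledons and 3569.8 in seeds (3.39-fold lower, 3.17 to 3.63). *CSD2*, the chloroplast copper-zinc dismutase, had 10657 in 3 day cotyledons and 1679.8 in seeds (6.34-fold higher, 6.07 to 6.64), and *CSD1*, its cytosolic counterpart, had 1569 in 3 day cotyledons and 923 in seeds and was not called. *CAT2*, *CSD1* and *CSD2* share their loci with others.

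Markers listed for tissues that whole seeds hold and cut cotyledons do not were looked up. Of 17 seed coat markers 8 had a unigene and 7 were tested, with 2 higher, 1 lower (2 lower when scaled by total reads) and a median log2 ratio of 0.88. The 8 had a summed value of 569 in 3 day cotyledons and 524 in seeds, so as a set they did not mark tissue held by seeds alone. None of 8 endosperm markers had a unigene. Of 18 root and radicle markers 8 had a unigene and 5 were tested, with 3 lower and 1 higher. *PIN2*, the auxin carrier of the root tip, had 0 reads in 3 day cotyledons and 386 in seeds (at least 89.5-fold lower), and *RHD6*, of root hairs, and *PRP3*, of root hair walls, had 0 reads in 3 day cotyledons with 42 and 22 reads in seeds. *SHR*, of the endodermis, rose 2.40-fold (1.85 to 3.12), and *SCR* was not called. *PYK10*, *SULTR1;1* and *AMT1;1*, which fell, are also root genes in *Arabidopsis*, and the part of the radicle in these falls was not tested.

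Beyond the lists, the largest falls by fold were of genes with reads almost only in seeds. *PER62*, a peroxidase, had 0 reads in 3 day cotyledons and 3490 in seeds, and *ADPG2*, a polygalacturonase of cell separation, had 0 reads in 3 day cotyledons and 1722 in seeds (at least 399-fold lower), and neither is in a shared locus. *MIOX1*, myo-inositol oxygenase, had 2 reads in 3 day cotyledons and 1042 in seeds (362-fold lower, 100.1 to 2997), and *MIOX2*, its paralog, had 4518 in 3 day cotyledons and 13936 in seeds (3.08-fold lower, 2.99 to 3.19). AT2G46740 and AT2G46760, D-arabinono-1,4-lactone oxidase relatives in 1 shared locus, had 3 reads in 3 day cotyledons and 1053 in seeds and 1 read in 3 day cotyledons and 527 in seeds. *ADH1*, alcohol dehydrogenase, had 1247 in 3 day cotyledons and 9329 in seeds (7.48-fold lower, 7.06 to 7.94), and *ASP2*, an aspartate aminotransferase, had 1306 in 3 day cotyledons and 10118 in seeds (7.75-fold lower, 7.32 to 8.21). *AHA1*, a plasma membrane proton pump, had 6197 in 3 day cotyledons and 20718 in seeds (3.34-fold lower, 3.25 to 3.44) from a shared locus.

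On the other side, *GER1*, a germin-like protein, had 10354 in 3 day cotyledons and 26.2 in seeds (395-fold higher, 287 to 562), and *PETE2*, a plastocyanin, had 4321 in 3 day cotyledons and 15.6 in seeds (278-fold higher, 183 to 443). *PAP8*, a purple acid phosphatase, had 371 reads in 3 day cotyledons and 2 in seeds (267-fold higher, 73.3 to 2209.9). The plastid chaperones *cpHSC70-2*, *CPN60B2* and *CPN60B3* were among the 12 largest gains in value of called unigenes, as were *NIH*, a helicase, and *CAT3*. *cpHSC70-2* had 32751 in 3 day cotyledons and 10249 in seeds (3.20-fold higher, 3.13 to 3.26). These chaperones and *NIH* lie in loci with others, and *CPN60B2* and *CPN60B3* are in the same one.

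Of the transcription factors with at least 100 reads, *COL6*, *COL8* and *COL16*, of the CONSTANS-like B-box family, were among the 6 largest rises. *COL6* had 345 reads in 3 day cotyledons and 2 in seeds (248-fold higher, 68.1 to 2056), and *COL8* had 164 reads in 3 day cotyledons and 0 in seeds (at least 78.6-fold higher). *SCL28*, a GRAS factor, had 167 reads in 3 day cotyledons and 2 in seeds (120.0-fold higher, 32.7 to 999), and *MYB47* had 201 reads in 3 day cotyledons and 3 in seeds (96.3-fold higher, 32.5 to 471). Among the largest falls, *DREB2G*, an AP2 factor, had 0 reads in 3 day cotyledons and 567 in seeds (at least 131-fold lower), *AZF1*, a zinc finger repressor, had 0 reads in 3 day cotyledons and 428 in seeds (at least 99.3-fold lower), *SCL33*, another GRAS factor, had 2 reads in 3 day cotyledons and 367 in seeds (128-fold lower, 35.1 to 1058), and *BBM*, an embryo AP2 factor, had 1 read in 3 day cotyledons and 129 in seeds (89.7-fold lower, 15.8 to 3572).

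Among unigenes matched to *Arabidopsis*, 1 had more reads in seeds than any other. This unigene, matched to *RPT6A*, a proteasome subunit, had 14225 reads in 3 day cotyledons and 113389 in seeds (5.55-fold lower, 5.45 to 5.64) and is 8477 bp long against 3074 bp for the whole *Arabidopsis* gene. It lies in locus 32 with *PORB* and with AT3G01310, a phosphoglycerate mutase-like gene that had 5299 reads in 3 day cotyledons and 70337 in seeds (9.23-fold lower, 8.98 to 9.50). How far joined transcripts set these counts was not tested. *GSTU21*, a glutathione transferase, had 272 RPKM in 3 day cotyledons and 1346 RPKM in seeds, also from a shared locus. *UBQ10*, a polyubiquitin often used as a reference gene, had 9467 in 3 day cotyledons and 21904 in seeds (2.31-fold lower, 2.26 to 2.37).

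The normalized values of the other libraries, later cotyledons and euphyllas (the first true leaves), show how some of these genes went on. *ESM1* had 43.2 in seeds, 16886 in 3 day cotyledons, 2650.1 and 147 in 7 and 11 day cotyledons and 139.8 in 11 day euphyllas. *SIP2* had 18305 in seeds, 1850.1 in 3 day cotyledons, 1815 and 24448 in 7 and 11 day cotyledons and 1084 in 11 day euphyllas. *LHY* had 507 in seeds, 7.12 in 3 day cotyledons, 2690.1 and 76.1 in 7 and 11 day cotyledons and 0 in 11 day euphyllas. *TIP3;1* and *MFT* had 0 in all 3 later libraries. *PMDH2* had 236 in seeds, 5354 in 3 day cotyledons, 22322 and 14384 in 7 and 11 day cotyledons and 6263 in 11 day euphyllas. *MLS* had 6844 in seeds, 23376 in 3 day cotyledons, 4077 and 1552 in 7 and 11 day cotyledons and 5419.5 in 11 day euphyllas. Of these genes *ESM1* and *MLS* had their highest value at 3 days, and *SIP2*, *LHY* and *PMDH2* had theirs in later cotyledons.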

How the data were processed

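RNA was sequenced as 1 library per tissue, each from 3 pooled biological replicates. Per the study's methods, the authors quality-trimmed the read pairs (limit 20), assembled all libraries together with Velvet and Oases (k-mer 69), kept top hits to *Arabidopsis* or nr as 19441 unigenes, and mapped the reads back with Bowtie (the sources used here give no versions). The deposited counts are raw mapped reads per unigene. The authors' normalized signal is the count over a DESeq size factor, 1 per library. The deposited RPKM are reads scaled by unigene length and by the counted reads of the library. Annotation of other kinds (match, GO, eggNOG) was taken as deposited. The authors' fold change, log2, p-value and FDR columns were not used.

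Folds, exact binomial intervals and calls were computed from counts and normalized signal with Python 3.11.15, numpy 2.4.6, pandas 2.3.3 and scipy 1.17.1, figures with matplotlib 3.10.9, and TMM factors with edgeR 4.0.16 in R 4.3.3. The calls were run on simulated counts that held counting error alone, so replicate variation and PCR copies were not part of that check. The locus of a unigene was read from its name. The comparison, its gene lists (41, organelle genomes included) and the tests were chosen with earlier results of these data known. Genes were named by rule: the 12 largest folds in each direction among called unigenes with at least 200 reads, the 12 largest differences, 6 transcription factors in each direction with at least 100 reads, and for each list the 5 called members with the most reads in each direction, 2 uncalled members, and every glucosinolate gene and marker. Further list members, the family groupings and the shared loci were picked after their values were seen. Alternatives were scaling by total reads or TMM factors, a minimum of 10, 100 or no reads, a 4-fold limit, a 99.9% interval, counts divided by 2, a pseudocount of 10 and, added after seeing the data, leaving out unigenes of shared loci. No sequences were printed. No replicate can be left out.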

Additional observations from a re-analysis of the deposited data

How the results depend on the processing

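With a 4-fold limit, 1735 unigenes were higher in 3 day cotyledons and 1522 lower. The other alternatives kept both counts within 1.5 times of the main ones. The number of gene lists with more members higher than lower was 20, between 18 and 22 under the alternatives other than shared loci, and 13 without unigenes of shared assembly loci, chosen after seeing the data, where fewer unigenes are compared. That choice ended the excess of higher members in oil breakdown (2 of 16 higher, 2 lower), aquaporins (3 of 14 higher, 4 lower), fatty acid synthesis (4 of 14 higher, 4 lower), peroxide scavenging (2 of 6 higher, 2 lower), proteases (2 of 7 higher, 3 lower) and cuticle genes (5 of 22 higher, 6 lower). It also ended that of ribosomal proteins, which had 31 of 233 unigenes higher and 21 lower, 28 and 29 when scaled by total reads, and 17 and 20 of 143 without shared loci. Over the 828 list members and genes named by rule, 18 calls of a higher gene were lost and 18 uncalled genes became lower when scaled by total reads, and 7 calls of a lower gene were lost and 12 uncalled genes became higher with TMM factors. No called gene among them was called in the other direction. Scaled by TMM factors, calls higher outnumbered calls lower (3886 and 3373). The median log2 ratio changed sign in 7 of 40 lists under at least 1 alternative. No paired analysis was possible because each tissue is 1 library, and for the same reason no replicate could be left out. Depth limits low unigenes: 0 reads allow a value of up to 3.05 in 3 day cotyledons and 2.12 in seeds.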

Other observations

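By deposited GO compartment, unigenes of the chloroplast thylakoid membrane were higher in 3 day cotyledons in 75.7% of 235 cases and lower in 2.13%, with a median log2 ratio of 2.17. Those of the nucleolus, where ribosomes are made, were higher in 7.69% of 260 cases and lower in 23.8% (median -0.34). Of 497 unigenes of the endoplasmic reticulum 9.66% were higher and 29.0% lower (median -0.47), and of 785 of the Golgi apparatus 11.7% were higher and 25.2% lower (median -0.38). Unigenes of the mitochondrion were close to balance, with 19.7% of 1898 higher and 19.8% lower.

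The proteasome was split by its parts, a grouping made after the values were seen. Of 22 unigenes of the core particle, which cuts proteins, 19 were higher in 3 day cotyledons and none lower, with a median log2 ratio of 1.64 and a range of 0.03 to 2.31. Of 19 unigenes named RPT or RPN, of the regulatory particle that feeds the core, 3 were higher and 1, *RPT6A*, was lower, with a median of 0.40. Without unigenes of shared assembly loci 14 of 15 core unigenes were higher and none lower, and 1 of 9 regulatory unigenes was higher and none lower. The cause was not tested.

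Of the unigenes with no *Arabidopsis* match, 2 had more reads in seeds than any other unigene. A unigene of 9117 bp had 10425 reads in 3 day cotyledons and 156108 in seeds (10.4-fold lower), which was 1.63% of all seed reads. Another, described as a homing endonuclease encoded in an rRNA intron, had 9068 reads in 3 day cotyledons and 120546 in seeds (9.25-fold lower).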
